A study of Mus musculus with 24 samples.

Results

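The core circadian clock loop was followed in the livers of 24 mice through 10 genes (Arntl, Clock, Npas2, Per1, Per2, Per3, Cry1, Cry2, Nr1d1 and Nr1d2), chosen by name from the 25746 genes with hepatic RNAseq counts, and all 10 were found. The mice were C57BL/6N males and females aged 12 weeks, with the strain spelled C57/BL6N in the sample labels. They carried the whole Mup cluster (mWT and fWT) or were homozygous for its deletion (mKO and fKO). Each group held 6 mice, with 1 library per mouse. The Mup genes code for the major urinary proteins, which the liver makes and the kidney excretes. The deletion had been made with CRISPR/Cas9, and the line goes back to a single male founder, so genotype here stands for 1 edited allele. According to the study's methods all mice were fasted for some hours, anesthetized with isoflurane, scanned by microCT in a random order and then euthanized by cardiac puncture. Each liver thus gave a single time of collection, and the hour is not given in the sources used here.

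The clock of a liver cell is a feedback loop of transcription. BMAL1, the protein of Arntl, pairs with CLOCK or with its close relative NPAS2, and the pair binds E-box elements to switch on the Per, Cry and Nr1d genes. PER and CRY proteins accumulate and block the pair, while the nuclear receptors REV-ERBα (Nr1d1) and REV-ERBβ (Nr1d2) repress Arntl through RORE elements. Arntl and Npas2 transcripts therefore peak at a different time of day from those of Per2, Per3 and Nr1d1, and the output factors DBP, TEF and HLF act on D-box elements, where NFIL3 opposes them.

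Elements of this kind were searched in the RefSeq promoters (GRCm38.p6, 250 bases before to 50 after the start of transcription), on both strands. The elements were the E-box CACGTG, its variant CACGTT, the cAMP response element TGACGTCA, the D-box TTATGTAA or TTACGTAA, and the RORE TAGGTCA or TGGGTCA. Among 32851 mouse promoters, 7.15% held the E-box, 4.68% the variant, 1.79% the cAMP response element, 1.06% the D-box and 6.45% the RORE. For Per2 no promoter was used here. The matches in the other 9 genes are printed below 5′ to 3′ along the gene's strand with the matched letters in capitals, because these are the elements named for the loop's activators, repressors and output factors. A match is a description of letters and not a binding site. A variant box on the opposite strand appears as AACGTG.
Arntl, RORE (chr7:113207530-113207558, plus strand): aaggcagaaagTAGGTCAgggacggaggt
Per1, E-box (chr11:69098772-69098799, plus strand): gcacccaagtcCACGTGcagggatgtgt
Per3, first D-box (chr4:151044852-151044881, minus strand): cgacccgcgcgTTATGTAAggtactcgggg
Per3, second D-box (chr4:151044805-151044834, minus strand): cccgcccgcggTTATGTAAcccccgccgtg
Cry1, E-box (chr10:85185098-85185125, minus strand): gtgccggtggtCACGTGgggtgcatgcc
Cry1, variant box (chr10:85185117-85185144, minus strand): cacacttcagaAACGTGaggtgccggtg
Cry2, variant box (chr2:92434219-92434246, minus strand): cacatggtgggAACGTGagggggcggag
Nr1d1, variant box (chr11:98775389-98775416, minus strand): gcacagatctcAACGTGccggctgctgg
The Arntl match began 30 bases after the start, inside the transcript. The 2 D-boxes of Per3 began 205 and 158 bases before its start, and Per3 was the only one of these 9 genes with a match to the D-box. Cry1 held the E-box and its variant at 60 and 79 bases before the start. The matches of Per1 and Cry2 both began 166 bases before, and that of Nr1d1 28 bases before. Arntl and Per1 each had 2 promoters, of which 1 held the match, and distances refer to the start of that promoter. The Per1 match lies inside the span of the gene, before an internal start. The promoters of Clock, Npas2 and Nr1d2 held none of these letters, and none of these 9 genes held the cAMP response element.

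The libraries held 15361901 to 26261394 counts each. Mup transcripts, summed over 22 genes, took 1.70% to 3.68% of the counts in mWT and 0.344% to 0.555% in fWT mice, while 3 of the 12 KO libraries held any Mup count, with at most 11, so genotype labels and transcripts matched. Levels are given in CPM, which are counts scaled by the library totals over tested genes and by TMM factors, and 3 counts, taken as the smallest detectable amount, correspond to 0.113 to 0.199 CPM (a limit of counting error alone, as no molecular identifiers were used). All 7 hepatocyte markers were detected, with a summed level of 89038 to 145593 CPM over the 24 livers. The endothelial, Kupffer cell, stellate cell and bile duct markers, of which 5 of 5, 5 of 5, 5 of 5 and 3 of 5 passed the filter on low counts, summed to at most 169, 219, 338 and 55.2 CPM. In bulk tissue, fewer cells of a type and less RNA per cell cannot be told apart.

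A pair of fKO mice stood apart from the other 4 before any group was compared. Arntl reached 16.9 CPM in fKO mouse 2 and 15.6 CPM in fKO mouse 3, while the other 4 fKO mice lay between 0.585 and 1.37 CPM. The same pair of mice held 12.2 and 9.63 CPM of Per3 against 56.9 to 82.1 CPM in the other 4, and 10.6 and 9.15 CPM of Per2 against 37.6 to 42.9 CPM. Their Arntl and Npas2 levels were the highest of all 24 mice, and their Per2 level was the lowest. Their hepatocyte sums of 111998 and 112811 CPM lay below those of the other 4 fKO mice (118412 to 145593 CPM), the Kupffer cell sums of 98.0 and 178 CPM lay below and above theirs (109.7 to 154 CPM), and the part of these markers in the clock values was not tested. Since the pair was noticed by its clock values, values are also given without it, and those are no independent evidence. Leaving it out moved no member's log2 fold change between mKO and mWT or between mWT and fWT mice by more than 0.0021, while the errors of all comparisons changed with the shared estimate of spread.

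**Figure D1:**
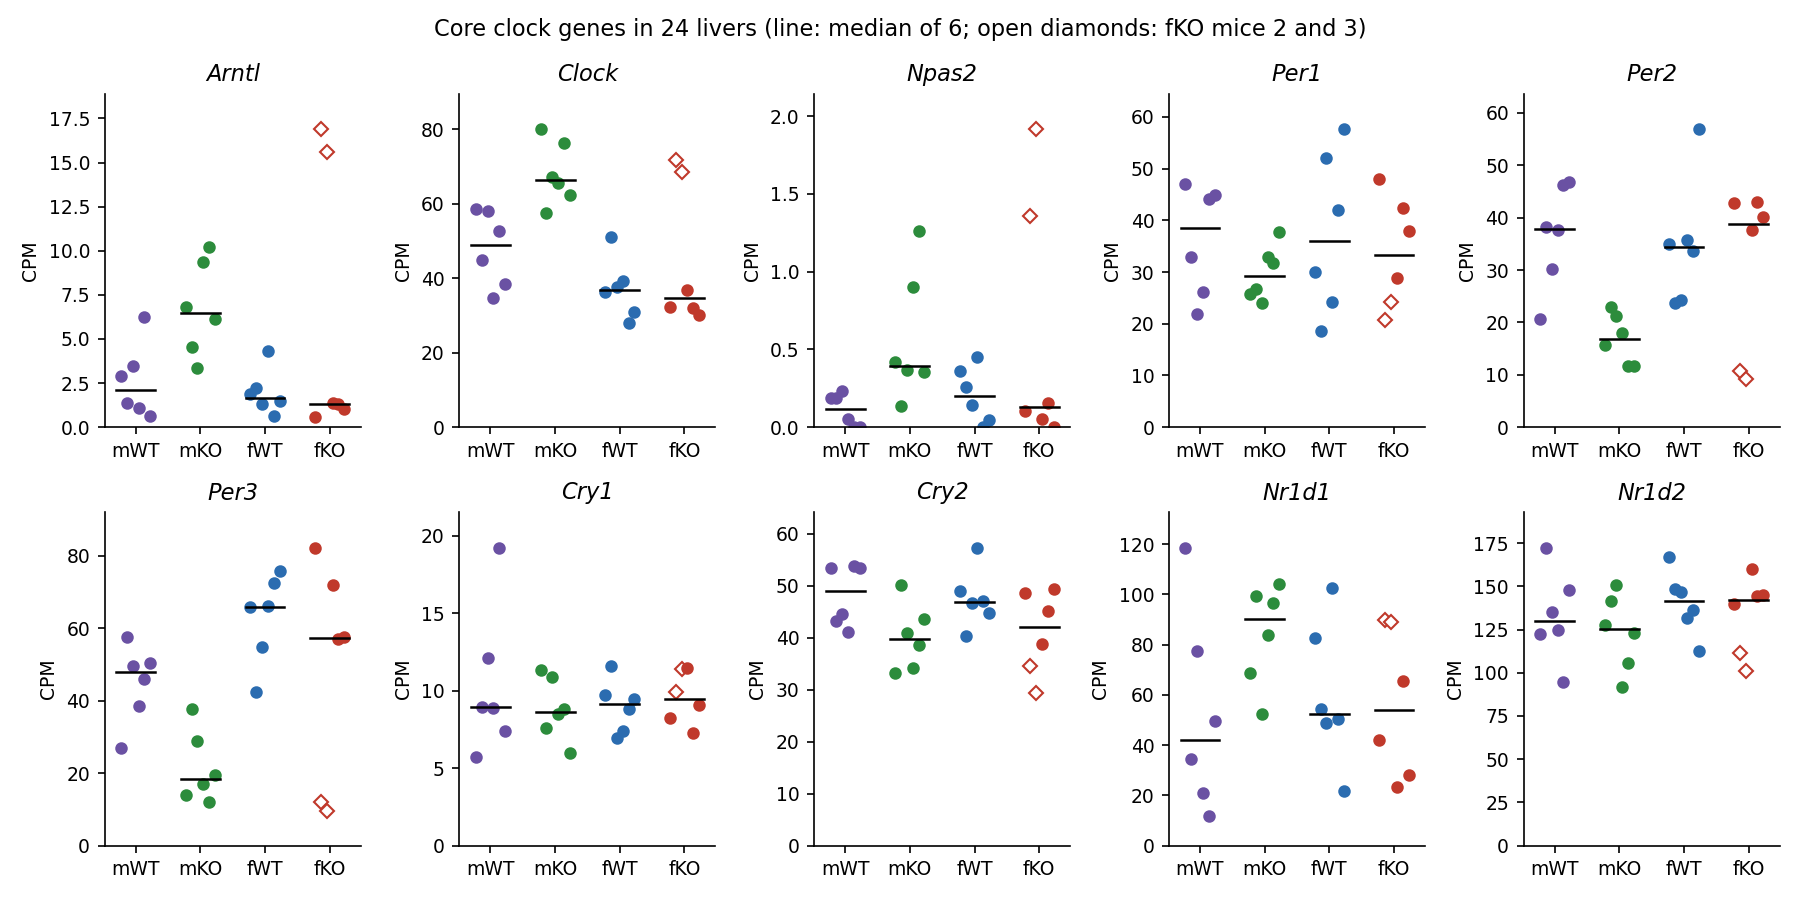
Level of each clock gene in CPM (linear axes from 0) in the 6 mice of each group, 1 point per mouse, with the group median as a line and fKO mice 2 and 3 as open diamonds. The 2 diamonds lie at 16.9 and 15.6 CPM for Arntl, above all other mice, and at 10.6 and 9.15 CPM for Per2, below all other mice.

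Per kilobase of exon, which allows levels of different genes to be compared, the nuclear receptors were the most abundant members and the activators Arntl and Npas2 the least. In mWT mice Nr1d2 stood at 24.6 ± 4.82 CPM per kb (SD, n = 6) and Nr1d1 at 17 ± 13. They were followed by Cry2 (7.64 ± 0.931), Per1 (6.42 ± 1.90), Per2 (6.25 ± 1.69), Per3 (4.66 ± 1.11), Clock (3.48 ± 0.738) and Cry1 (3.11 ± 1.44). Arntl had 0.347 ± 0.276 and Npas2 0.0229 ± 0.0219 CPM per kb. Neighbours from Nr1d2 down to Cry1 overlapped within 1 SD of each other in mWT mice, whereas Cry1, Arntl and Npas2 were each separated by more than that.

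In males the deletion was accompanied by higher median levels of the activators and lower medians of Per2 and Per3, although only Per2 passed the test. Each difference was tested over 12330 genes by the quasi-likelihood method of edgeR, with an unadjusted p under 0.01, the study's own cut-off, as a call and a Benjamini-Hochberg adjusted p under 0.05 beside it. Of the 9 members above the filter on low counts (Npas2 was below it), 1 was called between mKO and mWT mice and 0 reached the adjusted threshold, where 3.52% and 0.211% of all genes did so. A count of 1 gene is too small to be set apart from that background. At an unadjusted p under 0.05 there were 4 members. All 9 members overlapped between the 6 mKO and 6 mWT mice. The median log2 fold change of the 9 was −0.23, with a range from −1.11 to 1.36, against a median of −0.0021 over all genes.

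Arntl (ENSMUSG00000055116, chromosome 7, 113207465 to 113314126) codes for BMAL1, the activator that the loop cannot run without. It ranged from 0.637 to 6.22 CPM in mWT mice with a median of 2.12 CPM, and from 3.37 to 10.2 CPM in mKO mice with a median of 6.47 CPM. All mKO mice lay above the mWT median, and the ranges overlapped through mWT mice 3 and 5. The log2 fold change was 1.36 (SE 0.733, unadjusted p = 0.0774, adjusted p = 0.536) and did not pass the test. Without fKO mice 2 and 3, which belong to neither male group but enter the shared estimate of spread, it was 1.36 (SE 0.440, unadjusted p = 0.00564, adjusted p = 0.181), past the cut-off. With the 2 male groups fitted on their own by edgeR the unadjusted p was 0.0144, and with DESeq2 it was 0.0540. Arntl was called in 0 of the 33 fits that left out at most 1 mouse. Arntl shares 33 exon bases with an antisense gene, Gm45355, which was not used here.

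Clock (ENSMUSG00000029238, chromosome 5, 76209868 to 76304792), the DNA-binding partner of BMAL1, differed less than Arntl in size but varied less between mice. Its mWT range was 34.6 to 58.5 CPM with a median of 48.8 CPM, and its mKO range 57.5 to 79.9 CPM with a median of 66.4 CPM. The ranges met only at the edge, where mKO mouse 2 lay below mWT mice 1 and 3. In the test its log2 fold change was 0.51 (SE 0.209, unadjusted p = 0.0231, adjusted p = 0.369), and without fKO mice 2 and 3 0.51 (SE 0.135, unadjusted p = 0.000914, adjusted p = 0.0714).

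Npas2 (ENSMUSG00000026077, chromosome 1, 39193731 to 39363236), which can stand in for CLOCK, was close to the detection limit. It held at most 0.235 CPM in mWT mice with a median of 0.119 CPM, 0.137 to 1.26 CPM in mKO mice with a median of 0.392 CPM, at most 0.453 CPM in fWT mice with a median of 0.199 CPM, and at most 1.92 CPM in fKO mice with a median of 0.131 CPM. A count of 0 was found in mWT mice 5 and 6, fWT mouse 5 and fKO mouse 6, which allows up to 3 counts. When the filter on low counts was left out, the log2 fold change was 2.28 (SE 1.0, unadjusted p = 0.0328, adjusted p = 0.785) between mKO and mWT mice and 1.47 (SE 0.826, unadjusted p = 0.0892) between fKO and fWT mice.

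Per2 (ENSMUSG00000055866, chromosome 1, 91415982 to 91459324), whose protein with the CRYs blocks the BMAL1 pair, was the 1 member called. Its level was 20.7 to 46.8 CPM in mWT mice with a median of 37.9 CPM, and 11.6 to 23 CPM in mKO mice with a median of 16.9 CPM. Except for mWT mouse 1 at 20.7 CPM, all mWT mice were above all mKO mice. Per2 fell by 1.11 on the log2 scale (SE 0.350, unadjusted p = 0.00462, adjusted p = 0.216). The call was lost when mWT mouse 5, mWT mouse 6, mKO mouse 5 or mKO mouse 6 was left out, where the unadjusted p was 0.0110 to 0.0123 and the log2 fold change −1.03. Without fKO mice 2 and 3 the adjusted p was 0.0205 at a log2 fold change of −1.11.

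Per3 (ENSMUSG00000028957, chromosome 4, 151003652 to 151044665), a Per gene whose loss is known to leave the loop running, had a similar size of difference with more spread. In mWT mice it lay between 27.1 and 57.5 CPM with a median of 47.8 CPM, and in mKO mice between 12 and 37.6 CPM with a median of 18.3 CPM. The ranges overlapped through mKO mice 2 and 3 and mWT mouse 1. Between the group means the log2 fold change was −1.05 (SE 0.415, unadjusted p = 0.0192, adjusted p = 0.354), and without fKO mice 2 and 3 −1.05 (SE 0.241, unadjusted p = 0.000313, adjusted p = 0.0449). Per3 lies on the same chromosome as the Mup cluster, and Camta1 overlaps it on the same strand without shared exon bases.

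Per1 (ENSMUSG00000020893, chromosome 11, 69095217 to 69109960), the Per gene that also responds directly to glucocorticoids, did not pass. Its mWT range of 21.9 to 47.0 CPM (median 38.5 CPM) enclosed the mKO range of 24.1 to 37.7 CPM (median 29.2 CPM). For Per1 the log2 fold change was −0.28 with a 95% confidence interval from −0.83 to 0.27 (unadjusted p = 0.304).

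The cryptochromes, which give the PER–CRY complex most of its repressing strength, showed small differences in males. Cry1 (ENSMUSG00000020038, chromosome 10, 85131700 to 85185064) ranged from 5.75 to 19.2 CPM in mWT mice with a median of 8.92 CPM and from 6.0 to 11.3 CPM in mKO mice with a median of 8.64 CPM. Its log2 fold change of −0.23 (unadjusted p = 0.307) turned to 0.041 without mWT mouse 5, the mouse with the highest Cry1 level of all 24. Cry2 (ENSMUSG00000068742, chromosome 2, 92403646 to 92434043) ranged from 41.2 to 53.8 CPM in mWT and from 33.2 to 50.2 CPM in mKO mice, with medians of 49.0 and 39.7 CPM. Its log2 fold change was −0.27 (SE 0.120, unadjusted p = 0.0337, adjusted p = 0.420). Cry2 shares 295 exon bases with an antisense gene, D930015M05Rik, which was not used here.

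The nuclear receptors did not pass either. Nr1d1 (ENSMUSG00000020889, chromosome 11, 98767932 to 98775333) spanned 11.9 to 119 CPM in mWT mice with a median of 42.1 CPM, and 52.5 to 104 CPM in mKO mice with a median of 90.3 CPM. The mWT mice held both the lowest and the highest Nr1d1 level of all 24 mice, in mice 5 and 1. For Nr1d1 the log2 fold change was 0.69 with a 95% confidence interval from −0.28 to 1.66 (unadjusted p = 0.154). Nr1d1 shares 263 exon bases with Thra on the opposite strand, and since the strand setting of the counting is not given in the sources used here, reads of the 2 genes may be mixed there. Nr1d2 (ENSMUSG00000021775, chromosome 14, 18204054 to 18239127) had the smallest fold change in males, at 94.8 to 172 CPM in mWT and 92.0 to 151 CPM in mKO mice, with a log2 fold change of −0.11 (unadjusted p = 0.437).

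In females, the size and the sign of the KO difference of Arntl, Clock, Per2 and Per3 depended on fKO mice 2 and 3. Between fKO and fWT mice 0 of the 9 members were called and 0 reached the adjusted threshold, where 0.876% and 0.0892% of all genes did so, and 1 member had an unadjusted p under 0.05. DESeq2 called 0 members as well. Arntl ranged from 0.659 to 4.33 CPM in fWT mice with a median of 1.67 CPM, while the fKO median was 1.33 CPM. The fKO median was thus below the fWT median although the fKO mice held the 2 highest values. The log2 fold change was 1.63 (SE 0.732, unadjusted p = 0.0377, adjusted p = 0.929), and it turned to −0.87 (SE 0.573, unadjusted p = 0.143, adjusted p = 0.808) without the pair.

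Clock held 27.9 to 51 CPM in fWT mice with a median of 36.9 CPM, and 30.2 to 71.7 CPM in fKO mice with a median of 34.5 CPM. Its log2 fold change of 0.29 (SE 0.210, unadjusted p = 0.186) turned to −0.17 (SE 0.152, unadjusted p = 0.272) without fKO mice 2 and 3, which were the 2 fKO mice above the fWT range. Per2 ranged from 23.8 to 56.9 CPM in fWT and from 9.15 to 42.9 CPM in fKO mice, with medians of 34.3 and 38.9 CPM. The log2 fold change was −0.19 (SE 0.341, unadjusted p = 0.574) with all mice and 0.24 (SE 0.241, unadjusted p = 0.338) without the pair. Per3 ranged from 42.4 to 75.6 CPM in fWT and from 9.63 to 82.1 CPM in fKO mice, with medians of 65.8 and 57.3 CPM, and its log2 fold change went from −0.38 (SE 0.403) to 0.10 (SE 0.260). For Arntl, Clock, Per2 and Per3 the female difference thus had the sign of the male difference with these 2 mice and the opposite sign without them.

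Among the remaining members in females, Per1 spanned 18.5 to 57.6 CPM in fWT and 20.7 to 48.0 CPM in fKO mice, with medians of 36.0 and 33.3 CPM. Cry1 lay between 6.96 and 11.6 CPM in fWT and between 7.25 and 11.5 CPM in fKO mice. Cry2 had medians of 46.9 and 42.0 CPM and a log2 fold change of −0.21 (SE 0.119, unadjusted p = 0.0840). These 3 genes overlapped widely between the groups. Nr1d1 had medians of 52.3 CPM in fWT and 53.9 CPM in fKO mice, with a 95% confidence interval of the log2 fold change from −1.06 to 0.87. Nr1d2 had medians of 141 and 142 CPM, with an interval from −0.35 to 0.20. The interval of Nr1d1 was the wider of the 2, and without fKO mice 2 and 3 its log2 fold change was −0.58 (unadjusted p = 0.276).

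**Figure D2:**
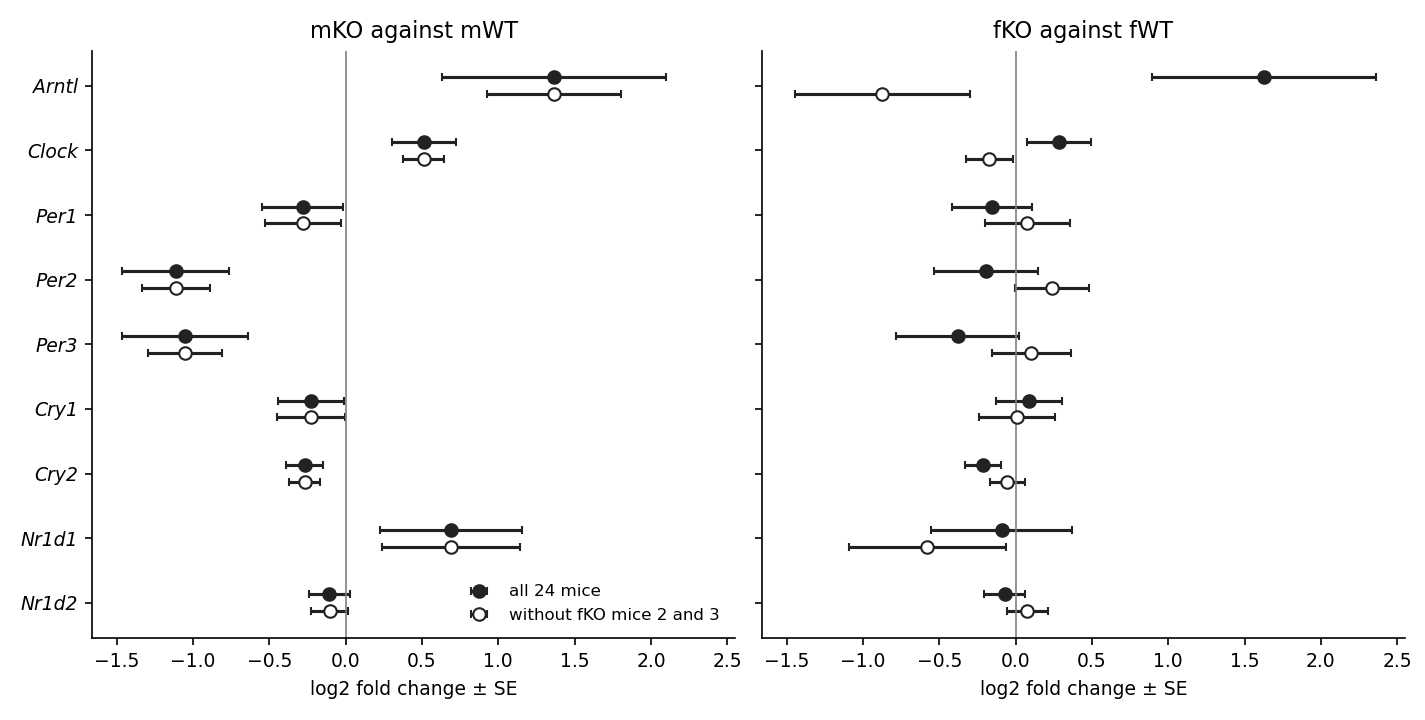
Log2 fold change ± SE of the 9 tested members between KO and WT mice in males (left) and females (right), with all 24 mice as filled circles and without fKO mice 2 and 3 as open circles. In females Arntl moves from 1.63 to −0.87 when the pair is left out, while in males the fold changes stay in place and the errors shrink.

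Whether the KO difference itself differed between the sexes was tested as an interaction. With all mice 0 of the 9 members were called and 0 reached the adjusted threshold, where 1.16% and 0.00811% of all genes did so, and 0 members had an unadjusted p under 0.05. DESeq2 also called 0 members. Per2 came closest, with a log2 difference between the male and the female KO effect of −0.92 (SE 0.487, unadjusted p = 0.0738), and Arntl gave −0.26 (SE 1.03, unadjusted p = 0.802). Over all genes the number called rose from 143 with all mice to 471 without fKO mice 2 and 3. In the fit without these 2 mice, 4 members passed the cut-off. These were Arntl at 2.24 (unadjusted p = 0.00568), Clock at 0.68 (unadjusted p = 0.00274), Per2 at −1.35 (unadjusted p = 0.000535) and Per3 at −1.15 (unadjusted p = 0.00380), and the lowest adjusted p among them was 0.103. The result of this comparison therefore rested on whether these 2 livers were counted.

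Between the sexes, WT mice gave no member call. Of the 9 members 0 were called between mWT and fWT mice, at either threshold, where 18.2% of all genes were called at the cut-off and 17.3% at the adjusted threshold, and 0 members had an unadjusted p under 0.05. DESeq2 called 0 members too, and 0 were called without fKO mice 2 and 3. The log2 fold changes, males against females, ran from −0.49 for Per3 to 0.37 for Arntl, whose 95% confidence interval from −1.26 to 2.01 was the widest.

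Between the sexes of KO mice Clock passed the cut-off narrowly. Clock was higher in mKO than in fKO mice, with a log2 fold change of 0.59 (SE 0.209, unadjusted p = 0.00988, adjusted p = 0.0625), and it was the 1 of 9 members called, with 0 at the adjusted threshold, where 15.9% and 14.4% of all genes were called. The share of members called was below that of all genes. Clock was called in 12 of the 33 fits that left out at most 1 mouse, with a log2 fold change of 0.50 to 0.77. The call was lost without a filter on low counts, with the study's filter read word for word, with the 2 groups alone, with the replicate block and in 17 of the 24 fits that left out 1 mouse. Per3 had a log2 fold change of −1.16 (SE 0.414, unadjusted p = 0.0107, adjusted p = 0.0662) and Per2 of −0.85 (SE 0.349, unadjusted p = 0.0241, adjusted p = 0.114). Without fKO mice 2 and 3 the values were 1.05 for Clock (adjusted p = 4.79e-05), 2.61 for Arntl (adjusted p = 0.00279), −1.28 for Per2 (adjusted p = 0.00104) and −1.64 for Per3 (adjusted p = 0.000190). Clock, Per2 and Per3 kept their direction, and Arntl had been at 0.11 (unadjusted p = 0.870) with all mice. The other 5 tested members were not called in any comparison, with or without the pair. All comparisons share groups with each other, so their results are not independent.

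Mice of 1 group differed from each other in the clock genes more than in most genes. The SD of log2 CPM within groups, pooled over the 4 groups, was 1.27 for Arntl, which is the 20th largest among 12330 genes, where the median was 0.20 and the 95th percentile 0.56. Nr1d1 had 0.85 (position 103), Per3 0.79 (position 154) and Per2 0.65 (position 336), all above the 95th percentile as well. Per1 stood at 0.48, Cry1 at 0.39, Clock at 0.37, Nr1d2 at 0.25 and Cry2 at 0.22. Over all 24 mice the highest level exceeded the lowest 28.9 times for Arntl, 9.97 times for Nr1d1, 8.53 times for Per3, 6.22 times for Per2 and 1.87 times for Nr1d2. Nr1d1 combined a large spread with one of the highest levels, and Cry2 and Nr1d2 were steady at high levels.

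Leaving out fKO mice 2 and 3 lowered the SD of Arntl to 0.84, of Per3 to 0.43 and of Per2 to 0.40, and left that of Nr1d1 at 0.83. Arntl and Nr1d1 then remained above the 95th percentile of all genes, and Per2 and Per3 did not. The SD of Nr1d1 was 1.22 in mWT mice, against 0.38 in mKO, 0.77 in fWT and 0.84 in fKO mice. For Arntl the SD was 1.14 in mWT, 0.60 in mKO, 0.84 in fWT and 2.03 in fKO mice. The spread of a gene within a group limited which differences could be detected, and the SE of the male KO difference was 0.733 for Arntl but 0.120 for Cry2.

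**Figure D3:**
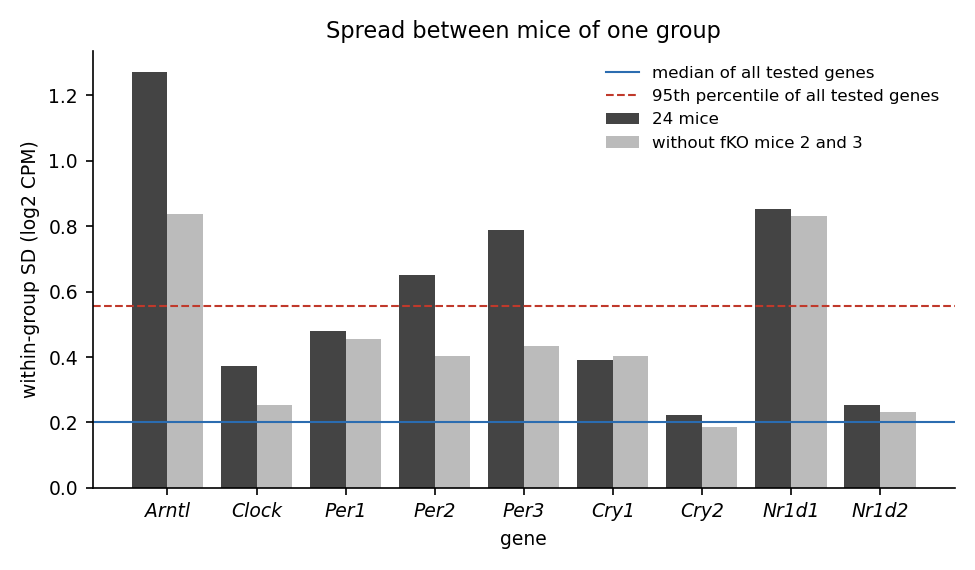
SD of log2 CPM between mice of 1 group, pooled over the 4 groups, for the 9 tested members with all 24 mice (dark bars) and without fKO mice 2 and 3 (light bars). The lines mark the median (0.20) and the 95th percentile (0.56) of all 12330 tested genes. Arntl at 1.27 and Nr1d1 at 0.85 stand above the dashed line in both cases.

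Some pairs of members varied together from mouse to mouse. Log2 CPM was centred on the group mean, so that genotype and sex did not enter, and each of the 45 pairs of members was tested by 100000 permutations of mice within groups. With all 24 mice, 18 of 45 pairs had an adjusted p under 0.05, of which 7 were positive and 11 negative. How many pairs of other genes would pass this test was not computed, so the count cannot be set against a background. All 18 kept their sign without fKO mice 2 and 3, and 12 had the same sign in each of the 4 groups. Only 1 pair, Per2 with Per3, still had an adjusted p under 0.05 without those mice. The number of pairs that passed thus rested largely on 2 livers.

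The activators varied in the same direction. Arntl and Clock had a Pearson r of 0.870 (permutation adjusted p = 0.00292) and a Spearman rho of 0.852 (permutation adjusted p = 0.00135). Without fKO mice 2 and 3, r was 0.679 after renewed centring (permutation adjusted p = 0.119), and within the groups of 6 mice it was 0.813 in mWT, 0.453 in mKO, 0.646 in fWT and 0.979 in fKO mice. Npas2 followed both, with r of 0.785 with Arntl and 0.809 with Clock (permutation adjusted p = 0.00660 and 0.00540), which became 0.505 and 0.576 without the pair. Npas2 rested on 0 to 36 counts per library.

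Per2 and Per3 ran in parallel and opposite to the activators. Per2 and Per3 had the largest r of all 45 pairs, 0.907 (permutation adjusted p = 0.000450; rho 0.855, permutation adjusted p = 0.00135), and 0.706 without fKO mice 2 and 3 (permutation adjusted p = 0.0495). Within groups it was 0.734 in mWT, 0.771 in mKO, 0.826 in fWT and 0.987 in fKO mice. Arntl and Per3 had an r of −0.795 (permutation adjusted p = 0.00953; rho −0.746, permutation adjusted p = 0.00759), which was −0.402 without the pair. Clock and Per2 had −0.827 (permutation adjusted p = 0.00540; rho −0.755, permutation adjusted p = 0.00697), which was −0.559 without it (permutation adjusted p = 0.147). Apart from Per2 with Per3, these relations no longer passed the test once the 2 mice were left out.

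Pairs with the remaining members varied. Per1 ran opposite to Clock with an r of −0.549 (permutation adjusted p = 0.0369) and to Npas2 with −0.515 (permutation adjusted p = 0.0453), which became −0.384 and −0.341 without fKO mice 2 and 3. By Spearman's rho neither relation passed (permutation adjusted p = 0.0739 and 0.0604). With Per2 and Per3 the r of Per1 was 0.409 and 0.361 (permutation adjusted p = 0.110 and 0.131). Arntl and its repressor gene Nr1d1 had 0.360 (permutation adjusted p = 0.162), which was 0.101 without fKO mice 2 and 3, while Arntl and Nr1d2 had −0.649 (permutation adjusted p = 0.00756) and −0.503. The 2 receptors did not follow each other, with r of 0.0247 (permutation adjusted p = 0.942). Nr1d1 and Npas2 had 0.629 (permutation adjusted p = 0.00720; 0.553 without the pair). Nr1d1 and Per2 had −0.589 (permutation adjusted p = 0.0130; −0.511 without the pair). Cry1 was in no pair with an adjusted p under 0.05 by Pearson's r, and its r with Nr1d1 was −0.509 (permutation adjusted p = 0.0816), −0.634 without fKO mice 2 and 3 and −0.139 without mWT mice 1 and 5, which were farthest from its median. By Spearman's rho Cry1 passed with Per1 (−0.537, permutation adjusted p = 0.0313) and with Cry2 (−0.509, permutation adjusted p = 0.0381). Cry2 and Per3 had 0.670 (permutation adjusted p = 0.0144) and 0.383 without fKO mice 2 and 3.

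**Figure D4:**
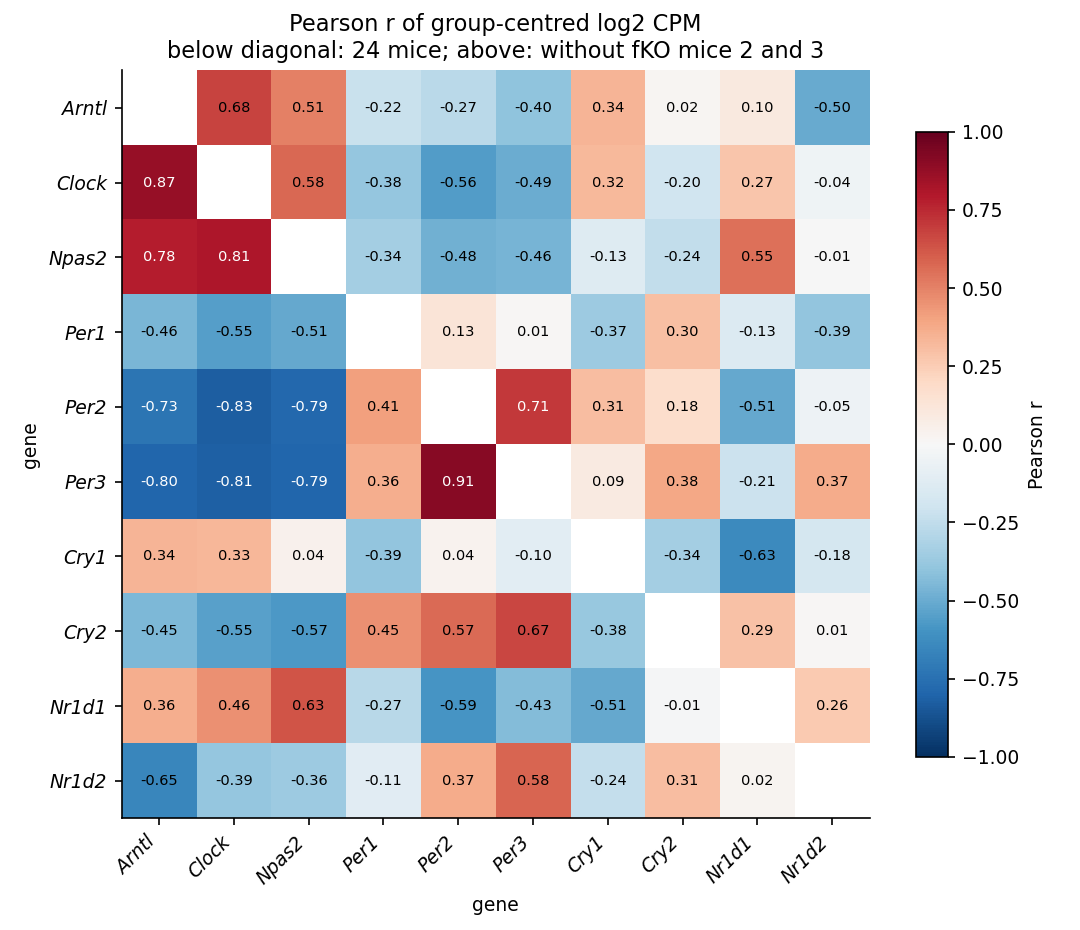
Pearson r of group-centred log2 CPM for each pair of members over 24 mice (below the diagonal) and without fKO mice 2 and 3 (above the diagonal), with r from −1 to 1 as colour. Arntl, Clock and Npas2 form a positive block opposed to Per2 and Per3, with r from −0.73 to −0.83 below the diagonal and from −0.27 to −0.56 above it.

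The ratio of Arntl to Per3 puts each mouse on 1 scale, as a description without a test. It joins 2 members that differed in opposite directions between mKO and mWT mice, so it is no independent evidence. In mWT mice log2 of this ratio (in CPM) ranged from −6.30 to −2.89 with a median of −4.48, and in mKO mice from −3.10 to −0.23 with a median of −1.36. In fWT mice it ranged from −6.78 to −3.93 with a median of −5.25. The fKO mice 2 and 3 stood at 0.47 and 0.69, and the other 4 fKO mice lay between −7.13 and −5.46. All mKO mice thus had a higher ratio than 5 of the 6 mWT mice, and the fKO group held both the lowest and the 2 highest ratios of the 24 mice.

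The sample titles carry a library number from 1 to 24, whose meaning is not given in the sources used here. Libraries 10 to 14 were mKO mice 4, 5 and 6 and fKO mice 2 and 3, and their ratios were between −1.68 and 0.69. Only 1 other library, number 1 (mKO mouse 1), had a ratio in that range, at −1.03. No WT mouse carries a number from 10 to 14, so that within this run of numbers genotype and number cannot be told apart. Without libraries 10 to 14, which were picked after their values were seen, the log2 fold changes between mKO and mWT mice were 0.92 for Arntl (unadjusted p = 0.100), 0.51 for Clock (unadjusted p = 0.00704), −0.87 for Per2 (unadjusted p = 0.00434) and −0.74 for Per3 (unadjusted p = 0.0146), based on 3 mKO mice.

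**Figure D5:**
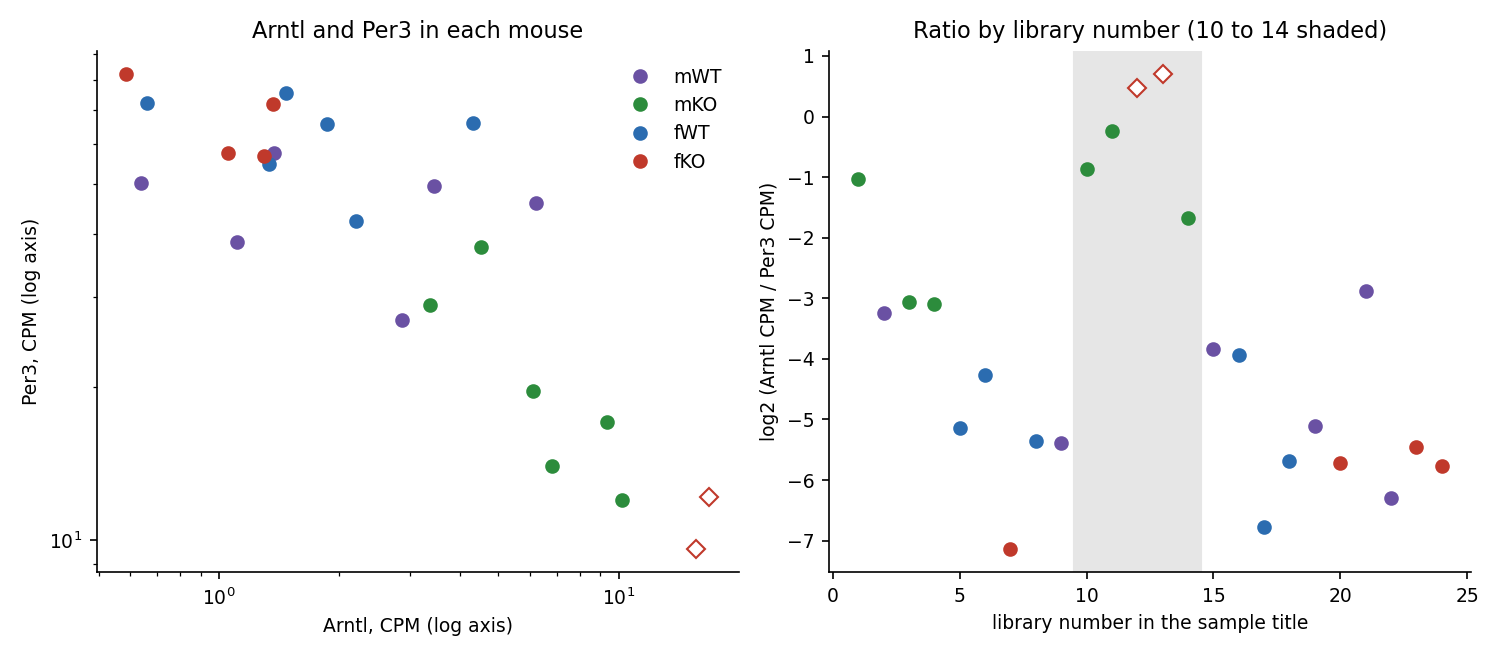
Left, Arntl against Per3 in CPM in each of 24 mice on log axes. Right, log2 of the ratio of Arntl to Per3 against the library number, with libraries 10 to 14 shaded. Colours mark the groups and open diamonds fKO mice 2 and 3, which have the highest ratios (0.47 and 0.69).

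The D-box factors are outputs of the same loop, and Per3 carries 2 D-boxes in the promoter printed above. Dbp, the output gene that the BMAL1 pair switches on directly, ranged from 26.6 to 79.0 CPM in mWT mice (median 59.0), 23.6 to 71.5 in mKO (median 38.3), 55.4 to 92.7 in fWT (median 71.1) and 14.8 to 79.1 in fKO mice (median 59.0). Its log2 fold change was −0.48 (SE 0.372, unadjusted p = 0.210) in males and −0.55 (SE 0.370, unadjusted p = 0.151) in females. Hlf was the 1 of 4 factors called between mKO and mWT mice, where 3.52% of all genes were, with medians of 61.6 and 83.0 CPM, and fell by 0.35 on the log2 scale (SE 0.121, unadjusted p = 0.00798, adjusted p = 0.266). Tef had medians of 172 CPM in mKO and 221 CPM in mWT mice and a log2 fold change of −0.44 (SE 0.218, unadjusted p = 0.0568). Nfil3, which represses through the same element, had 0.097 (SE 0.286, unadjusted p = 0.736) in males and 0.67 (SE 0.289, unadjusted p = 0.0299, adjusted p = 0.929) in females. In females and for the interaction 0 of the 4 were called, where 0.876% and 1.16% of all genes were. In each, 1 factor (Nfil3 and Hlf) had an unadjusted p under 0.05. With fKO mice 2 and 3 left out, Hlf at −0.35 and Tef at −0.44 were called between mKO and mWT mice (unadjusted p = 0.00309 and 0.00114), and the values in females were −0.12 for Dbp, 0.15 for Tef, 0.19 for Hlf and 0.26 for Nfil3, with 0 called. For the interaction without the pair, Hlf at −0.54 and Tef at −0.59 were called (unadjusted p = 0.00232 and 0.00267), where 471 of the 12330 genes were. Between mKO and fKO mice 0 of the 4 were called with all mice, and Hlf at −0.35 and Tef at −0.72 without the pair. The shares of all genes called without the pair in the 2 comparisons of mKO mice are not given here.

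Tef was also the gene closest to Per3 over the 24 mice. As a description over group-centred levels, without a test, Per3 had its highest r outside the members with Tef (0.929) and Usp2 (0.874). Arntl was most like St5 (0.957), Ypel2 (0.949), Chka (0.927), Nedd4l (0.925), Pnkd (0.904), Asap2 (0.890), Caprin1 (0.887) and Loxl4 (0.884). At the other end stood Coq10b (−0.899), Ppat (−0.893), Gys2 (−0.891), Pabpc4 (−0.852), Tef (−0.849), Pcsk4 (−0.826), Dbp (−0.815) and Usp2 (−0.815). Among 12329 genes ordered by r with Arntl, Clock was the 9th from the top, and Per3 and Per2 were the 17th and the 47th from the bottom. Chka codes for choline kinase alpha, Gys2 for the glycogen synthase of the liver, and Ppat for the first enzyme of purine synthesis. All libraries in these values share 1 sequencing pool, and fKO mice 2 and 3 are the 2 mice farthest from the median of Arntl. Without them r was 0.704 to 0.896 for the 8 genes at the top and −0.732 to −0.437 for the 8 at the bottom.

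For the other members the 2 most similar genes were Clpx and Tab2 for Clock (0.927 and 0.916), Slc30a10 and Dtx4 for Npas2 (0.910 and 0.905), Zfp276 and Arrdc2 for Per1 (0.846 and 0.838), and Ttc23 and Homer2 for Per2 (0.865 and 0.851). They were Trappc13 and Desi2 for Cry1 (0.786 and 0.774), Xdh and Mtss1 for Cry2 (0.835 and 0.767), Gas7 and Lgals9 for Nr1d1 (0.922 and 0.892), and Gmfb and Pank1 for Nr1d2 (0.857 and 0.831). For Cry1 and Cry2 these values were the lowest among the members. When fKO mice 2 and 3 were left out, the r of the 18 closest genes of the members other than Arntl ranged from 0.491 for Usp2 with Per3 to 0.910 for Gas7 with Nr1d1.

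The proteins that modify the loop were described through 20 genes, of which 19 were tested. Between fKO and fWT mice 0 were called by edgeR, where 0.876% of all genes were, with 1 gene at an unadjusted p under 0.05. The counts between mKO and mWT mice and for the interaction are not reported here. Between mWT and fWT mice, where 18.2% of all genes were called, 1 was higher, Gsk3b, a kinase that marks clock proteins, with a log2 fold change of 0.41 (SE 0.0743, adjusted p = 0.000294). Between mKO and fKO mice 2 were higher and 1 lower, all 3 with an adjusted p under 0.05, and this count is near the 15.9% and 14.4% of all genes called. These were Gsk3b at 0.31 (SE 0.0741), Bhlhe41, which codes for the repressor DEC2, at 1.5 (SE 0.458) and Nampt, the rate-limiting enzyme of NAD salvage, at −0.93 (SE 0.307). These values without fKO mice 2 and 3 were 0.30, 1.33 and −1.30, and Bhlhe41 was no longer called (unadjusted p = 0.0234). Without fKO mice 2 and 3, 0 of the 19 were called higher between mKO and mWT mice. Usp2 at −1.02 and Nampt at −0.71 were among those called lower (edgeR, unadjusted p = 0.00132 and 0.00518, adjusted p = 0.0881 and 0.173). For the interaction without the pair, Usp2 and Nampt gave −1.43 and −1.31 (unadjusted p = 0.00206 and 0.000831). The median log2 fold change of the 19 with all mice was −0.071 in males and −0.015 in females.

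Arntl, Nr1d1, Per1 and Per2 were also set beside the genes that modify the loop, the D-box factors and genes that respond to feeding, glucocorticoids, temperature or acute stimulation, in 228 relations tested together. With all mice 25 had an adjusted p under 0.05, namely 12 for Arntl, 5 for Nr1d1, 4 for Per1 and 4 for Per2, and without fKO mice 2 and 3 there were 6. The share of all genes that would pass with these 4 members was not computed. Arntl followed the immediate early genes, which are switched on within minutes of a stimulus, in 6 of 7 cases. With Egr1 its r was 0.802 (permutation adjusted p = 0.00114; rho 0.811, permutation adjusted p = 0.00228) over 24 mice and 0.709 (permutation adjusted p = 0.0182) without the pair, and with Fos 0.792 and 0.676 (permutation adjusted p = 0.00182 and 0.0351). Ier2 was the other gene of this group that still passed without the pair, with r of 0.838 and 0.677 (permutation adjusted p = 0.00182 and 0.0365). Within the groups of 6, r of Arntl and Egr1 was 0.796 in mWT, 0.867 in mKO, 0.816 in fWT and 0.952 in fKO mice.

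Summed over the 7 immediate early genes, fKO mice 2 and 3 held 1449 and 1312 CPM, and the other 4 fKO mice 234 to 385 CPM. The mWT mice ranged from 261 to 623 CPM, the mKO mice from 155 to 920.2 CPM and the fWT mice from 429 to 1233 CPM. The 2 livers with the highest Arntl levels were thus also the 2 with the highest immediate early sums, and the part of these genes in the clock values was not tested. In the test by edgeR between KO and WT mice of either sex, 0 of these 7 genes, 0 of 11 fasting and feeding genes, 0 of 9 glucocorticoid-responsive genes and 0 of 7 temperature-responsive genes were called. Over all genes 3.52% were called in males and 0.876% in females. Of the listed genes 0 had an unadjusted p under 0.05, which 1305 of the 12330 genes had in males and 601 in females. The summed levels of the glucocorticoid-responsive list (3866 and 4085 CPM) lay below, and those of the temperature-responsive list (953 and 841 CPM) within, the range of the other 4 fKO mice.

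Arntl ran opposite to Dbp (r of −0.815, permutation adjusted p = 0.00798) and Tef (−0.849, permutation adjusted p = 0.00494), which became −0.562 and −0.573 without fKO mice 2 and 3. Cpt1a, the gate of fatty acids into mitochondria, was the 1 of 11 fasting and feeding genes related to Arntl (−0.695, permutation adjusted p = 0.0248; −0.386 without the pair), and none of the 9 glucocorticoid-responsive genes passed for Arntl. Rbm3, a cold-inducible RNA-binding protein, ran opposite to Arntl (−0.678, permutation adjusted p = 0.0248) and to Nr1d1 (−0.571, permutation adjusted p = 0.0319).

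The relations of Nr1d1 and Per1 had a similar r with and without fKO mice 2 and 3. Nr1d1 ran opposite to Nampt with an r of −0.797 (permutation adjusted p = 0.00114; rho −0.830, permutation adjusted p = 0.00228), −0.818 without the pair (permutation adjusted p = 0.0182) and −0.824 without mWT mice 1 and 5, the farthest from its median. Within groups this r was −0.888 in mWT, −0.455 in mKO, −0.947 in fWT and −0.872 in fKO mice. Wdr5 ran opposite to Nr1d1 as well (−0.734, permutation adjusted p = 0.00871), and it still passed without the pair (−0.733, permutation adjusted p = 0.0351). Per1 followed Ciart, a repressor of the loop (0.624, permutation adjusted p = 0.00798; 0.610 without the pair, permutation adjusted p = 0.148), and 2 of the 9 glucocorticoid-responsive genes, Tsc22d3 (0.577, permutation adjusted p = 0.0114) and Tat (0.548, permutation adjusted p = 0.0343). With Tsc22d3, which codes for the glucocorticoid-induced leucine zipper, the r of Per1 was 0.610 without fKO mice 2 and 3 (permutation adjusted p = 0.0502). Per2 followed Nampt, Tef and Hlf, with r from 0.66 to 0.832, and these were 0.372 to 0.601 without the pair.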

How the data were processed

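Hepatic RNA was measured in 24 mice, and the deposited values are raw counts per Ensembl gene. According to the study's methods and the submitters' processing notes, the authors used a stranded mRNA kit, pooled all libraries for sequencing, ran fastp 0.20 for trimming, used STAR 2.7a for alignment (GRCm38.p6) and featureCounts for counting. The strand setting of the counting is not given in the sources used here. Gene names and coordinates came from GENCODE M21, which matched 25635 of 25746 genes.

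The counts were tested with edgeR 4.0.16 (R 4.3.3). A gene needed 0.66 CPM or more in 6 or more libraries (12330 genes did), libraries were scaled by TMM, and the quasi-likelihood test with robust dispersions was fitted to the 4 group means of all 24 libraries. Total counts of 15361901 to 26261394 set the counting error, and since each mouse is its own animal, p-values measure the spread between mice. No 2 libraries of the same group agreed within sampling noise (lowest chi-square per gene 7.68), and libraries of different groups were not compared in this way. Relations between genes used log2 CPM (prior count 2) centred on group means and two-sided permutation tests in Python 3.11.15 with numpy 2.4.6. The edgeR step was tested on simulated data for mKO against mWT with 12330 genes, where 95% of 200 changed genes passed an unadjusted p under 0.01. These genes were drawn at random, and their planted changes were larger than most of the members' differences between mKO and mWT mice. The share therefore does not describe members with a large spread or a small difference.

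The members and gene lists were chosen with earlier results of these data known. Named are the 10 members, list genes called in a comparison, the 4 D-box factors, the 8 genes most and the 8 least like Arntl and the 2 most like each other member. Some list genes are also named because their relation with Arntl, Nr1d1, Per1 or Per2 passed, so they were chosen by that result. Alternatives were DESeq2 1.42.0, its size factors, other filters, each pair of groups alone, a replicate block, removal of the Mup genes, another prior count, Spearman's rho, no centring and each mouse left out. Fits without fKO mice 2 and 3 and without libraries 10 to 14 were added after seeing the data. Methylation data were not analysed here, and the results of 1 list gene are not reported here.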

Additional observations from a re-analysis of the deposited data

Results flagged for a closer look

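Across the 10 members and 4 groups, the highest and the lowest mouse of each group of 6 were compared with the rest by Dixon's ratio, 40 groups in all, of which chance marks about 1 in 20. In 1 group a mouse stood out. Per2 in fWT mouse 6 was 56.9 CPM, the highest of its group, and the next mouse, fWT mouse 4, had 35.7 CPM. The same mouse had the highest Per1 (57.6 CPM) and Per3 (75.6 CPM) and the lowest Nr1d1 (21.9 CPM) and Nr1d2 (112 CPM) levels of the 6 fWT mice. Without it, the log2 fold change of Per2 between fKO and fWT mice was 0.0032. Mice that stand apart as a pair, such as fKO mice 2 and 3, are not detected by this ratio.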

How the results depend on the processing

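Between mKO and mWT mice, 1 member was called in the reported fit. The number was 3 with DESeq2, 3 with each pair of groups fitted on its own, 3 with the replicate block, 4 without fKO mice 2 and 3 and 2 without libraries 10 to 14, and 0 to 3 with single mice left out. Over all genes 434 were called in the reported fit, 278 without libraries 10 to 14 and 285 to 522 with single mice left out. Between mKO and fKO mice, where 1 member was called, the number of members was 2 with DESeq2, 0 without a filter, with the study's filter read word for word (dropping genes under 0.66 CPM in 6 or more libraries), with each pair alone and with the replicate block, 4 without fKO mice 2 and 3 or without libraries 10 to 14, and 0 to 3 with single mice left out. Over all genes 1956 were called there, 1191 without libraries 10 to 14 and 1656 to 1996 with single mice left out. For the interaction the number of members rose from 0 to 4 without fKO mice 2 and 3 and to 2 without libraries 10 to 14. The count over all genes rose from 143 to 471 and 255 in the same 2 fits. For the other settings the count over all genes at the cut-off is not given here. In the other comparisons no alternative called a member. At an adjusted p under 0.05 there were 0 members, but 2 without fKO mice 2 and 3 between mKO and mWT, and between mKO and fKO 2 with DESeq2, 4 without the pair or without libraries 10 to 14 and 0 to 3 with single mice left out.

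Mouse numbers come from the titles and mark different animals. Same-numbered mice correlated between −0.335 and 0.169, so the block is given as an alternative only.

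Of the 45 log2 fold changes (9 members, 5 comparisons), 23 changed sign under at least 1 alternative, 17 of them under one other than leaving out fKO mice 2 and 3 or libraries 10 to 14. The 2 called ones did not, and only Arntl between fKO and fWT mice had an unadjusted p under 0.05 among the 23. The larger changes follow. Between fKO and fWT mice, without fKO mice 2 and 3 and without libraries 10 to 14, Arntl became −0.87 in both, Clock −0.17, Per2 0.24, Per3 0.10, Per1 0.078 and Nr1d2 0.077, and Per2 spanned −0.32 to 0.0032 with single mice left out. For the interaction Arntl became 0.66 with the replicate block, 2.24 without the pair and 1.79 without libraries 10 to 14, and spanned −0.67 to 0.39 with single mice left out. Between mKO and fKO mice Arntl spanned −0.12 to 0.76, and Cry1 became 0.14 without libraries 10 to 14. Between mKO and mWT mice Nr1d2 became 0.076 without libraries 10 to 14 and Cry1 spanned −0.35 to 0.041. The cause of these changes was not tested.

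Among all genes at the cut-off, the interaction rose from 143 to 471 without the pair and 255 without libraries 10 to 14, which lowered mKO against mWT from 434 to 278 and mKO against fKO from 1956 to 1191. With single mice left out mKO against mWT spanned 285 to 522. At an adjusted p under 0.05, mKO against mWT had 26 genes, and 1 with the word for word filter, 2 with the Mup genes removed, 139 with DESeq2, 48 with the pair of groups alone, 98 without fKO mice 2 and 3, 17 without libraries 10 to 14, and 19 to 60 with single mice left out. For fKO against fWT 11 genes became 0 with the word for word filter, 0 with the Mup genes removed and 18 with DESeq2, and for the interaction 1 gene became 0 with the word for word filter, 11 with DESeq2, 23 without the pair and 2 without libraries 10 to 14. For mKO against fKO 1774 genes became 793 without libraries 10 to 14. The word for word filter and the removal of the Mup genes leave out the Mup genes themselves.

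Of the 45 pairs, 18 passed, and 29 without centring, 1 without the pair and 0 without libraries 10 to 14. Of the 228 relations, 25 passed, and 39, 6 and 1 under the same settings, and 15 to 38 with single mice left out. For the correlation with the library number, which does not respond to a block in mid-run, 0 of 10 members passed, and 0 to 1 with single mice left out. Above the 95th percentile of spread were 4 members, and 2 without the pair. Depth limits Npas2, and the spread between mice limits Arntl and Nr1d1.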
